A study of Mus musculus with 6 samples.

Results

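The genes described here are 36 genes of glucose uptake, glycolysis and the hypoxia response, listed by name and read on microarrays of marrow cells from mice with leukemia. They comprise 4 transporters of glucose and lactate, 18 enzymes of the path from glucose to lactate, 3 enzymes that switch glycolytic flux, 4 genes of the hypoxia-inducible factors (HIF) and their oxygen sensors, and 7 other HIF targets. Of the 36, 32 had a probe set that the array annotation pairs with that gene alone, out of 22180 genes so measured, and a gene with several such probe sets was read from the brightest of them. No filter on low values was used. Gpi1, Aldoa, Eno1 and Ankrd37 had no such probe set and were not analysed here, which leaves the isomerase step, the main aldolase and the main enolase of the path without a value.

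The arrays were hybridised with RNA of primary cells sorted from the bone marrow, 3 of chronic myeloid leukemia (CML) and 3 of acute myeloid leukemia (AML). The labels call the cells osteoblastic and the titles call them stromal, and mice of both groups carried Col2.3 GFP, a transgene that puts green fluorescent protein under part of the Col1a1 promoter and so labels osteoblast-lineage cells. The groups follow the titles; the source-name field disagrees, giving CML for each of the 6 samples. How each leukemia was induced, the strain, sex and age of the mice, the time of sampling and any pooling of animals are not given in the sources used here. Nothing says that the samples of a group came from separate mice, so the p-values reflect only how far these samples differ, and that spread may be technical.

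Glycolysis splits glucose to pyruvate in the cytosol, and lactate dehydrogenase then turns pyruvate to lactate and restores the cofactor that keeps the path running. Glucose enters through facilitative GLUT carriers and lactate leaves through proton-coupled monocarboxylate carriers. Under low oxygen the prolyl hydroxylases that mark HIF alpha subunits for destruction lose activity, and HIF then binds short sites in the promoters of glycolytic and angiogenic genes. The bone marrow is known as a tissue of low oxygen tension, and osteoblasts and myeloid cells are both known to rely on glycolysis.

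Hk3, a hexokinase best known from myeloid cells, rose in AML and was the 1 gene of the 32 past the threshold, which was a Benjamini-Hochberg adjusted p under 0.05 over all genes in limma. That share, 3.12%, is near the 1.91% of all genes that passed (1.83% higher and 0.0812% lower in AML), so the count says nothing particular about this set. By value 22 of the 32 genes were higher in AML and 10 lower, while 38.3% of all genes were higher by value. At an unadjusted p under 0.05, 13 of the 32 were higher in AML, or 40.6% against 12.6% of all genes, and 0 were lower, against 8.99%. On 13 genes every AML array lay above every CML array, or 40.6% against 13.3% of all genes, and on 0 every AML array lay below, against 17.9%; 31.3% of all genes did not overlap in either direction. Among the 13, Pgam1 and Car9 each had a dimmer probe set on which the groups overlapped. The log2 change, AML minus CML, was above 0.5 on 15 of the 32, or 46.9% against 16.4% of all genes. The list was chosen with earlier results of these data known, so these shares are descriptive and not an independent test of the set.

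These genes were bright, and bright genes were more often higher in AML. Of the 11090 brighter genes, the top 50% by mean intensity, 3.57% passed as higher, and Hk3 was 1 of 28 listed genes among them. At an unadjusted p under 0.05, 23.4% of the brighter genes were higher in AML, compared with 46.4% of the 28. The groups did not overlap, AML higher, on 24.1% and again 46.4%, and 59.8% and 71.4% were higher by value. The median log2 change of the 32 genes, AML minus CML, was 0.36, against -0.11 over all 22180 genes. Median centring of the arrays moved the median of all genes to 0.04 and that of the 32 to 0.51. The medians by role were 0.51 for the 15 measured enzymes, -0.58 for the 4 transporters, 0.25 for the 3 switch enzymes, 0.66 for the 4 HIF factors and sensors and 0.18 for the 6 measured HIF targets.

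**Figure D1:**
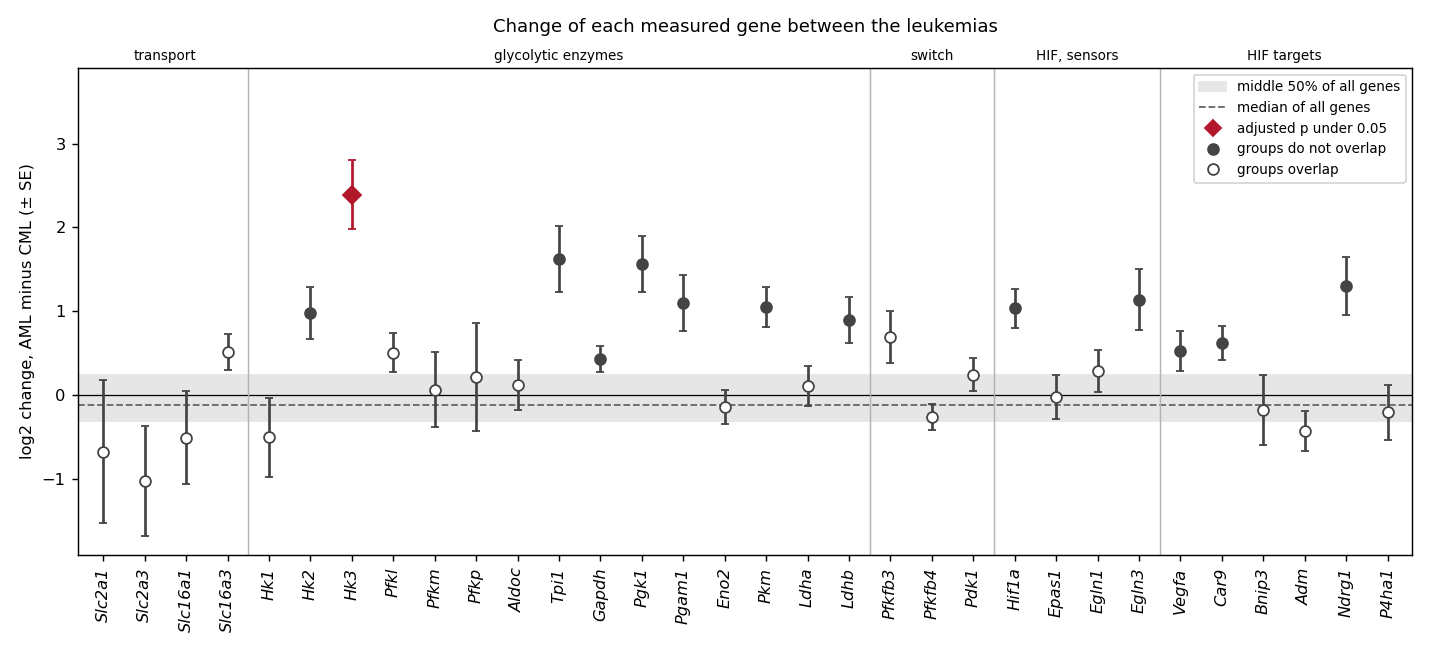
Log2 change of each of the 32 measured genes, AML minus CML, with the moderated standard error of limma (3 arrays per group). Genes run by role and, for the enzymes, along the pathway; Hk3 alone passed the adjusted threshold, and filled points mark the 13 genes on which every AML array lay above every CML array.

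The cells of the labelled lineage were not the only ones in these samples. Over 10 osteoblast genes the mean log2 intensity ran from 6.61 to 9.20 on the CML arrays and from 5.96 to 7.49 on the AML arrays, and Col1a1 stood at 10.30 ± 1.62 in CML and 8.59 ± 1.30 in AML (SD, n = 3 each). Over 14 genes of all blood cells the mean was 6.64 to 8.33 (CML) and 8.57 to 9.26 (AML), and all 14 were higher in AML by value, 2 of them past the threshold that 1.83% of all genes passed as higher. The primary granule and progenitor list rose in all its 6 genes, and all 6 passed the threshold. Elane was at 7.19 ± 0.32 in CML and 11.04 ± 0.65 in AML. Ptprc, which encodes CD45, ran from 4.96 to 8.27 (CML) and 8.17 to 9.30 (AML), and the endothelial cadherin gene Cdh5 was at 4.79 ± 0.46 and 4.32 ± 0.22. Other blood lists did not all rise. By value all 3 measured erythroid, 4 B cell and 3 T cell genes were lower in AML, with overlapping groups. Of 8 neutrophil genes 5 were higher by value and 3 lower. Of 4 megakaryocyte genes 3 were higher by value and 1 lower, with overlapping groups and a median change of 1.49. Their mean was highest on AML 3, 2.40 above that of the 6 arrays. Of 7 monocyte and macrophage genes 6 lay higher on every AML array and 1, C1qa, lower, against 13.3% and 17.9% of all genes. The median change of these 7 was 2.23, and 4 passed as higher, compared with 1.83% of all genes. The lists of all blood cells and of primary granules were higher in AML beside Hk3 and the other genes described below as higher. So were 6 of the 7 monocyte and macrophage genes. The part of any blood cell type in those results was not tested. In bulk RNA a smaller share of cells of a type and less RNA per cell cannot be told apart.

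Promoters were searched because many listed genes are known HIF targets and 13 were higher together. RefSeq promoters of build GRCm38.p6, 250 bases before to 50 after a start site, were found for 33 of the 36 genes, 47 promoters in all. The core of the HIF site was searched as ACGTG and GCGTG on both strands; ACGTG overlaps the E-box CACGTG. At least 1 match stood in 38 of the 47 promoters (80.9%), compared with 43.8% of all 32851 promoters of this length, and ACGTG alone in 55.3% compared with 19.6%. The list was made by name and holds many known HIF targets. This excess could therefore be foreseen and says nothing about AML against CML. Among the genes higher on every AML array 11 of 14 promoters held a match (78.6%), and among the other measured genes 21 of 25 did (84%). The motifs differed in opposite directions: ACGTG stood in 71.4% and 52% of these promoters and GCGTG in 28.6% and 72%. These shares rest on few promoters, some of 1 gene, and were not tested. Both motifs contain CG, and base composition was not matched. The promoters of Hk3, Pgk1 and Hif1a are shown because these genes had the lowest adjusted p of the set, and the first promoter of Ldha because it held the most matches, 7, on a gene whose groups overlapped. They are written 5′ to 3′ along the gene, with matches in capitals.

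Hk3, chr13:55021336-55021635, minus strand: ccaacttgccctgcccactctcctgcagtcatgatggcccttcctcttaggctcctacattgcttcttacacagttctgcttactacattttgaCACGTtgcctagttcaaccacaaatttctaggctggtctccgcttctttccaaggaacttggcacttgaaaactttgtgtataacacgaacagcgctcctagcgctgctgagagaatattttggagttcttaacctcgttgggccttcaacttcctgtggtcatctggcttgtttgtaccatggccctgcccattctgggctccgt
Pgk1, chrX:106186850-106187149, plus strand: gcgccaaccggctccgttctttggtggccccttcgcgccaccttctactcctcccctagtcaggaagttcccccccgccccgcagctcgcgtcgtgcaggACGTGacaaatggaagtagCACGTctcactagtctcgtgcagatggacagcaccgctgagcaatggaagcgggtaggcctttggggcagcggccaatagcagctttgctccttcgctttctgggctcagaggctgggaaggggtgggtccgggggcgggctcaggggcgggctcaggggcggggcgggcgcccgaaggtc
Hif1a, chr12:73907617-73907916, plus strand: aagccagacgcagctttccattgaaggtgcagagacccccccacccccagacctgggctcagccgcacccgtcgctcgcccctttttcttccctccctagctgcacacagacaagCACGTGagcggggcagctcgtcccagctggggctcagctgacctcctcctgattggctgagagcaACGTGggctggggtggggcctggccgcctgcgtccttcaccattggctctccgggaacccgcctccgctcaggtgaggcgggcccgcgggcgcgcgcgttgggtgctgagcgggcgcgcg
Ldha, chr7:46845554-46845853, plus strand: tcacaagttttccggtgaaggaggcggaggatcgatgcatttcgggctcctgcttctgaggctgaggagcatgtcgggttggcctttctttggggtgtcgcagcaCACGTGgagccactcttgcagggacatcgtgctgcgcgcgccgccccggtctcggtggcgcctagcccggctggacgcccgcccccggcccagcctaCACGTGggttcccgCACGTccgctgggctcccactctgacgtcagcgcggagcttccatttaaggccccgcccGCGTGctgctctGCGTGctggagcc

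The Hk3 promoter held 1 match, that of Pgk1 2 and that of Hif1a 3, of which 2 are the strands of 1 E-box. In Ldha 2 E-boxes account for 4 of the 7. A match is a run of letters and not a site shown to be bound.

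Neither transcript of the glucose carriers passed the threshold, and 1 CML array stood apart on both. Slc2a1, the basal glucose carrier GLUT1, read 7.40, 10.64 and 7.49 in the order CML 1, 2, 3, then 7.74, 7.51 and 8.27 for AML 1, 2, 3, all as log2 intensity. CML 2 lay 2.36 above the next array. The log2 change was -0.67 ± 0.85 (SE; limma adjusted p = 0.632), and it was 0.40 without CML 2 (limma adjusted p = 0.351). A dimmer probe set of Slc2a1 gave -0.39. Slc2a3, the high-affinity carrier GLUT3, read 6.45, 8.50 and 6.21 in CML and 5.59, 5.70 and 6.81 in AML. CML 2 was again highest, by 1.70, and the change of -1.02 ± 0.65 (SE; limma adjusted p = 0.367) came to -0.30 without it.

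The lactate carriers had changes of opposite sign, neither past the threshold. Slc16a1, the widespread monocarboxylate carrier MCT1, read 6.63, 6.98 and 6.78 in CML and 5.46, 5.78 and 7.65 in AML, where AML 3 alone lay above the CML arrays (-0.50 ± 0.55, limma adjusted p = 0.577; -1.18 without AML 3 and -0.08 without AML 1). Slc16a3, the exporter MCT4 and a known HIF target, read 5.65, 5.16 and 5.47 in CML and 5.62, 6.25 and 5.98 in AML, a change of 0.52 ± 0.22 (SE; limma adjusted p = 0.228). AML 1 fell just inside the CML range. The median of the 4 transporters, -0.58, turned to 0.047 without CML 2.

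The first step of the path showed the largest change of the set, in 1 of 3 hexokinases. Hk3 read 5.53, 4.65 and 5.52 in CML and 8.24, 7.79 and 6.84 in AML. Every AML array was above every CML array, and the gene was 5.24-fold higher in AML, at 7.62 ± 0.71 against 5.23 ± 0.51 (SD, n = 3 each; log2 change 2.39 ± 0.41, SE; limma adjusted p = 0.0470). Its call held without AML 3 (limma adjusted p = 0.0365) and ended without CML 1, CML 2, CML 3, AML 1 or AML 2 (limma adjusted p = 0.0600, 0.0634, 0.112, 0.163 and 0.180), with log2 changes from 2.08 to 2.78 over these fits. It also ended after quantile normalization (0.0917) and cyclic loess (0.110).

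Hk2, the inducible hexokinase of muscle and tumours and a HIF target, also lay higher on every AML array without passing. It read 5.38, 4.67 and 5.53 in CML and 6.04, 6.66 and 5.82 in AML (log2 change 0.98 ± 0.31, SE; limma adjusted p = 0.155). Hk1, the housekeeping hexokinase that binds mitochondria, read 6.09, 7.90 and 6.56 in CML and 5.95, 6.38 and 6.73 in AML. Its groups overlapped, CML 2 was the highest array by 1.17, and the change of -0.50 ± 0.47 (SE; limma adjusted p = 0.521) was 0.03 without CML 2.

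None of the middle steps, phosphofructokinase and aldolase, passed, and the groups overlapped on each measured gene. Pfkl, the liver-type subunit of the committed step, read 5.07, 5.27 and 5.23 in CML and 5.88, 5.20 and 6.02 in AML (0.51 ± 0.24, SE; limma adjusted p = 0.261), with AML 2 inside the CML range. Pfkp, the platelet-type subunit, read 6.16, 8.10 and 5.60 in CML and 7.02, 6.26 and 7.23 in AML. CML 2 was highest again, and the change was 0.22 ± 0.64 with it (SE; limma adjusted p = 0.843) and 0.96 without it. Pfkm, the muscle-type subunit, and Aldoc, the brain-type aldolase, differed by 0.07 ± 0.44 and 0.13 ± 0.30 (SE; limma adjusted p = 0.934 and 0.798).

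From triose phosphate isomerase to pyruvate kinase, all 5 of the housekeeping enzymes that were measured lay higher on every AML array, and none passed the threshold. Pgam1 did so by only 1 of its 2 probe sets. Tpi1, which interconverts the triose phosphates, read 6.28, 7.79 and 7.64 in CML and 8.98, 8.75 and 8.85 in AML. The AML arrays lay close together, CML 1 lay 1.36 below the next array, and the gene was 3.09-fold higher by value (log2 change 1.63 ± 0.40, SE; limma adjusted p = 0.0971). Without CML 1 the change was 1.15 and passed (limma adjusted p = 0.0418).

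Gapdh, the dehydrogenase often used as a loading reference, was the brightest gene of the set at the 99.8th percentile of all genes. It read 11.24, 11.03 and 10.98 in CML and 11.67, 11.50 and 11.38 in AML, a change of 0.43 ± 0.15 (SE; limma adjusted p = 0.180), which was 0.18 after cyclic loess. Its other probe sets gave 0.42 and 0.79, the latter from a dim one at 3.27 in CML.

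Pgk1, the first ATP-forming kinase of the path and a classic HIF target, read 7.79, 7.92 and 6.72 in CML and 9.29, 8.93 and 8.92 in AML. The groups did not overlap, and the gene was 2.97-fold higher by value (log2 change 1.57 ± 0.33, SE; limma adjusted p = 0.0735). It passed with array weights and when only the brighter 50% were tested (limma adjusted p = 0.0466 and 0.0482). Leaving out CML 3, its lowest array by 1.07, gave the smallest change, 1.19.

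Pgam1, the phosphoglycerate mutase, read 7.35, 7.70 and 6.83 in CML and 8.96, 8.34 and 7.88 in AML (1.10 ± 0.33, SE; limma adjusted p = 0.146). Its other probe set, dimmer at 5.56 and 5.57, gave a change of 0.008, so the probe sets disagree and the value for Pgam1 is uncertain. Gapdh, Pgk1, Pgam1, Tpi1 and the lactate dehydrogenases have processed copies in the genome that probe sets may also read. Pkm, the pyruvate kinase of most tissues, read 9.16, 9.22 and 8.80 in CML and 10.33, 10.36 and 9.65 in AML. Its groups did not overlap, and it was 2.08-fold higher by value (log2 change 1.06 ± 0.24, SE; limma adjusted p = 0.0830). Eno2, the neuronal enolase, was dim: its means of 3.73 (CML) and 3.59 (AML) lay under every array's median over genes, 4.38 to 4.64.

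The last step gave 1 readable subunit. Ldhb, the subunit of lactate dehydrogenase that favours pyruvate formation, read 4.57, 4.99 and 5.55 in CML and 6.10, 6.06 and 5.66 in AML (0.90 ± 0.27, SE; limma adjusted p = 0.145). The groups did not overlap, with AML 3 the nearest to CML 3. The probe set of Ldha, the subunit that favours lactate and a textbook HIF target, averaged 4.04 in CML and 4.15 in AML, below the array medians, and differed by 0.11 ± 0.24 (SE; limma adjusted p = 0.779). With a probe set this dim, a difference in Ldha may not have been detectable.

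**Figure D2:**
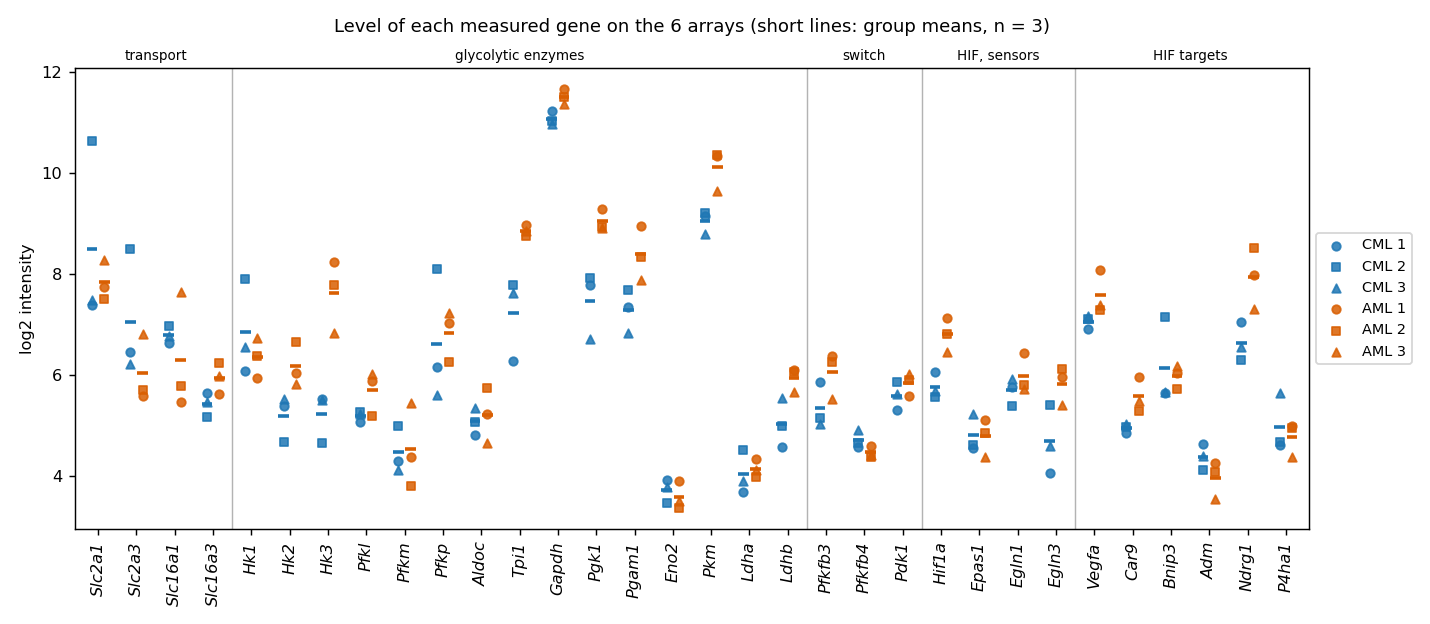
Log2 intensity of the 32 measured genes on each of the 6 arrays, with short lines at the group means. Genes run as in the plot of changes, levels of different genes are not comparable because each rests on its own probe set, and CML 2 stands far above the other arrays on Slc2a1 and Slc2a3.

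Of the enzymes that set glycolytic flux from outside the main path, none passed. Pfkfb3, which makes the activator of phosphofructokinase, read 5.86, 5.16 and 5.04 in CML and 6.37, 6.25 and 5.53 in AML (0.70 ± 0.31, SE; limma adjusted p = 0.248), with AML 3 below CML 1. Pfkfb4, a related enzyme, read 4.58 to 4.92 (CML) and 4.38 to 4.61 (AML) (-0.25 ± 0.15, SE; limma adjusted p = 0.353). Pdk1, the HIF-induced kinase that blocks pyruvate entry to the mitochondrion, read 5.31 to 5.86 (CML) and 5.59 to 6.03 (AML) (0.25 ± 0.20, SE; limma adjusted p = 0.459), with 0.10 without CML 1 and 0.38 without CML 2. By a second probe set the change was 0.93.

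Among the oxygen-sensing genes, Hif1a and Egln3 lay higher on every AML array, and Epas1 and Egln1 did not separate. Hif1a, the alpha subunit of HIF-1, read 6.06, 5.56 and 5.69 in CML and 7.14, 6.82 and 6.46 in AML. It was 2.05-fold higher by value (log2 change 1.04 ± 0.23, SE; limma adjusted p = 0.0774), passed after median centring (limma adjusted p = 0.0463). A second, dimmer probe set gave 0.51. Epas1, the alpha subunit of HIF-2, read 4.57, 4.62 and 5.23 in CML and 5.12, 4.86 and 4.38 in AML, a change of -0.02 ± 0.27 (SE; limma adjusted p = 0.967) whose sign turned under all 3 other scalings.

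Egln3, a prolyl hydroxylase that HIF itself induces, read 4.06, 5.40 and 4.60 in CML and 5.96, 6.11 and 5.41 in AML (1.14 ± 0.37, SE; limma adjusted p = 0.160). The groups did not overlap, though AML 3 and CML 2 were nearly equal. Egln1, the main oxygen sensor, read 5.39 to 5.93 (CML) and 5.72 to 6.44 (AML) (0.29 ± 0.25, SE; limma adjusted p = 0.481), and its change was 0.064 without AML 1.

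The HIF targets outside glycolysis did not move as 1 group: 3 lay higher on every AML array, 3 overlapped, and none passed. Ndrg1, a stress-responsive gene strongly induced by hypoxia, read 7.06, 6.30 and 6.56 in CML and 7.99, 8.53 and 7.32 in AML, and was 2.47-fold higher by value (log2 change 1.30 ± 0.34, SE; limma adjusted p = 0.114). By a second probe set the change was 1.08. Car9, the membrane carbonic anhydrase that removes acid, read 4.86, 4.98 and 5.03 in CML and 5.96, 5.29 and 5.50 in AML (0.63 ± 0.20, SE; limma adjusted p = 0.157). A dimmer probe set, at 3.96 and 4.12, gave 0.16.

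Vegfa, the main angiogenic growth factor, read 6.91, 7.11 and 7.17 in CML and 8.09, 7.29 and 7.40 in AML (0.53 ± 0.24, SE; limma adjusted p = 0.249). AML 1 carried much of this, since the change was 0.28 without it. Bnip3, a mitophagy receptor, read 5.65, 7.15 and 5.66 in CML and 6.04, 5.72 and 6.18 in AML, where CML 2 was highest by 0.97 and the change of -0.17 ± 0.42 became 0.33 without it. Adm, which encodes the vasodilator adrenomedullin, and P4ha1, a collagen prolyl hydroxylase, differed by -0.42 ± 0.24 and -0.20 ± 0.33 (SE; limma adjusted p = 0.322 and 0.706). Adm was dim, at 4.39 in CML and 3.97 in AML, and differed by -0.21 without AML 3. The change of P4ha1 was 0.13 without CML 3.

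Array by array, CML 2 stood apart on the largest number of these genes. An array lay more than 1 log2 unit from its nearest neighbour on 5 genes, and on 3 of them, Slc2a1, Slc2a3 and Hk1, that array was CML 2 at the top. CML 2 also had the highest mean of 3 erythroid genes, 1.89 above the mean of the 6 arrays, and the lowest of the 14 blood cell genes, at -1.58. The erythroid genes were also above their mean on CML 3 and AML 3, by 1.34 and 0.86, where Slc2a1 read 7.49 and 8.27. The part of red cell RNA in these values was not tested.

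**Figure D3:**
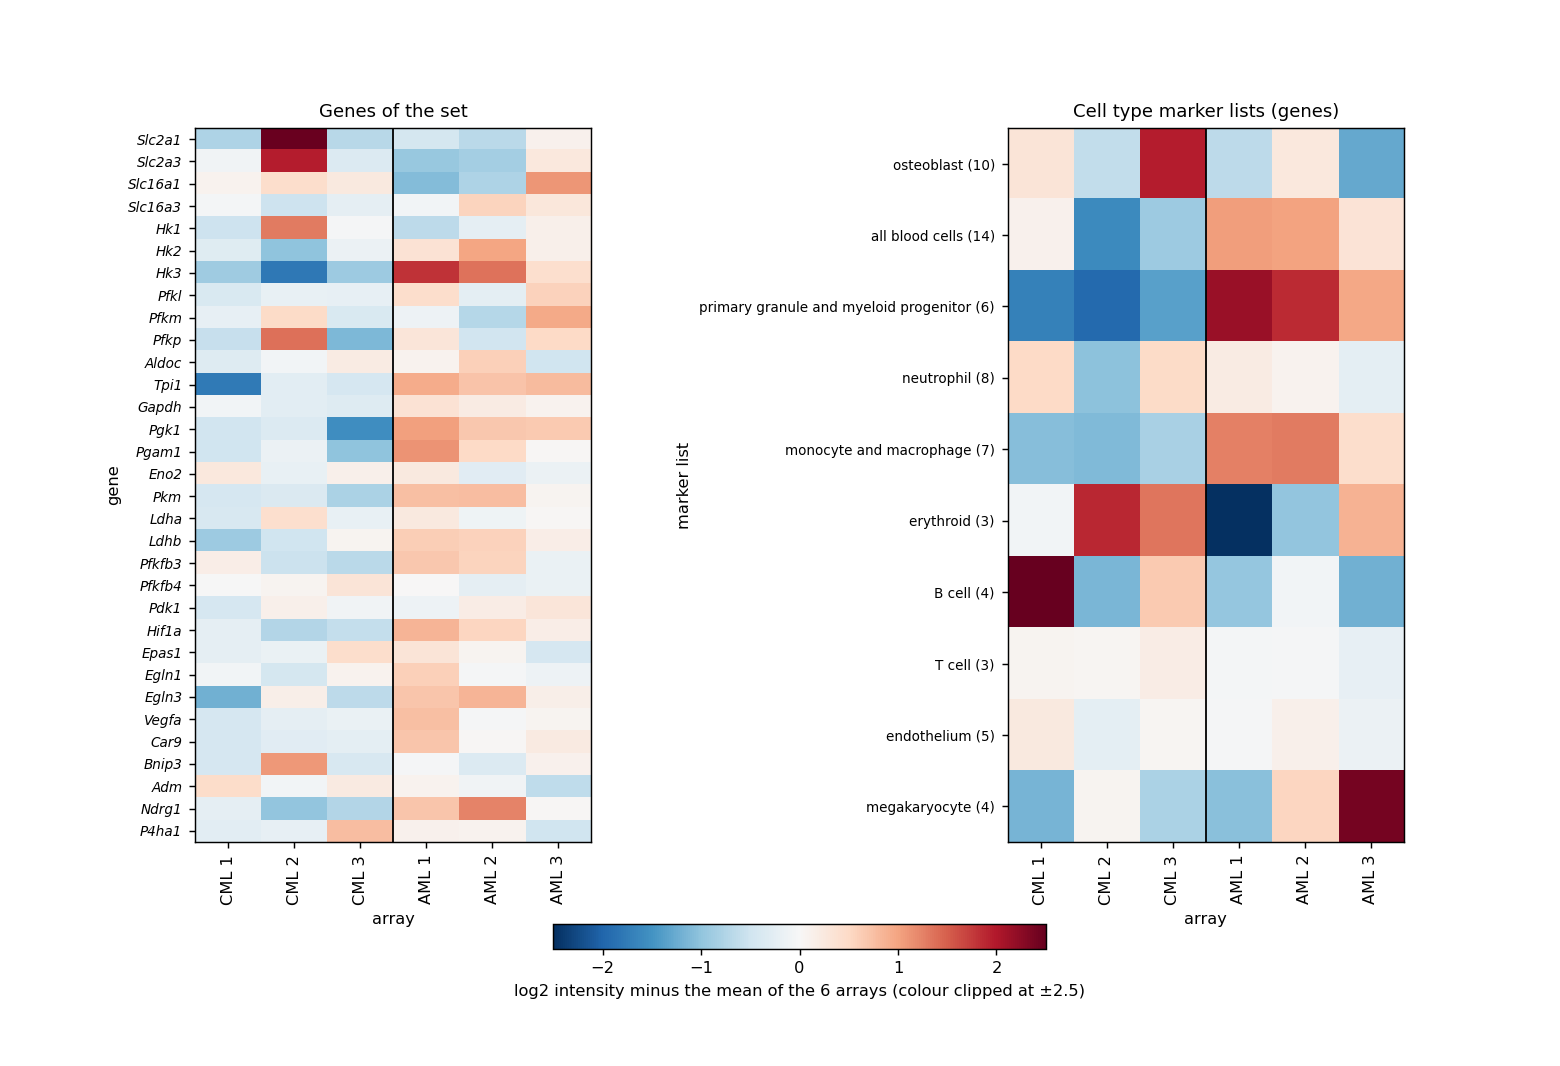
Log2 intensity minus the mean of the 6 arrays, for the 32 measured genes (left) and for the mean of each cell type marker list with its number of measured genes (right). Tpi1, Pgk1, Pkm and Hif1a are above their mean on all 3 AML arrays, as are the lists of all blood cells, of primary granules and of monocytes and macrophages. The B cell and T cell lists are below theirs on all 3.

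Related genes were also compared as a ratio within each array, which a shift of a whole array cannot move. Of 12 planned pairs 10 could be formed, and with 3 arrays against 3 the exact permutation test cannot go below p = 0.1. The ratio of Hk3 to Hk1 was 2.89 higher in AML on the log2 scale and that of Epas1 to Hif1a was 1.06 lower, both with no overlap between the groups (exact two-sided permutation p = 0.1 for each; adjusted p = 0.375 over the 10 pairs). For Hk3 and Hk1 the lowest CML array was CML 2, the array on which Hk1 was high. The ratio of Epas1 to Hif1a was nearly the same on all AML arrays, at -2.02 ± 0.06, and varied in CML, at -0.96 ± 0.52 (SD, n = 3 each).

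The groups overlapped on the other 8 pairs. Hk2 over Hk1 was 1.48 higher in AML by value, and 0.69 higher without CML 2. Slc16a3 over Slc16a1 was 1.02 higher, with 1.68 without AML 3 and 0.61 without AML 2. Egln3 over Egln1 was 0.85 higher, with 1.36 without CML 2 and 0.50 without CML 1. Ldhb over Ldha was 0.79 higher by value, and 0.53 without CML 2, but its denominator is the dim Ldha probe set, so this ratio is uncertain. Pfkfb4 over Pfkfb3 differed by -0.95. Pfkm over Pfkl differed by -0.44 and by -0.22 without CML 2, -0.26 without AML 1 and -0.74 without AML 3. Slc2a3 over Slc2a1 differed by -0.35 and by -0.10 without CML 1, -0.18 without AML 1 and -0.69 without CML 2. Pfkp over Pfkl differed by -0.29 and turned to 0.41 without CML 2.

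**Figure D4:**
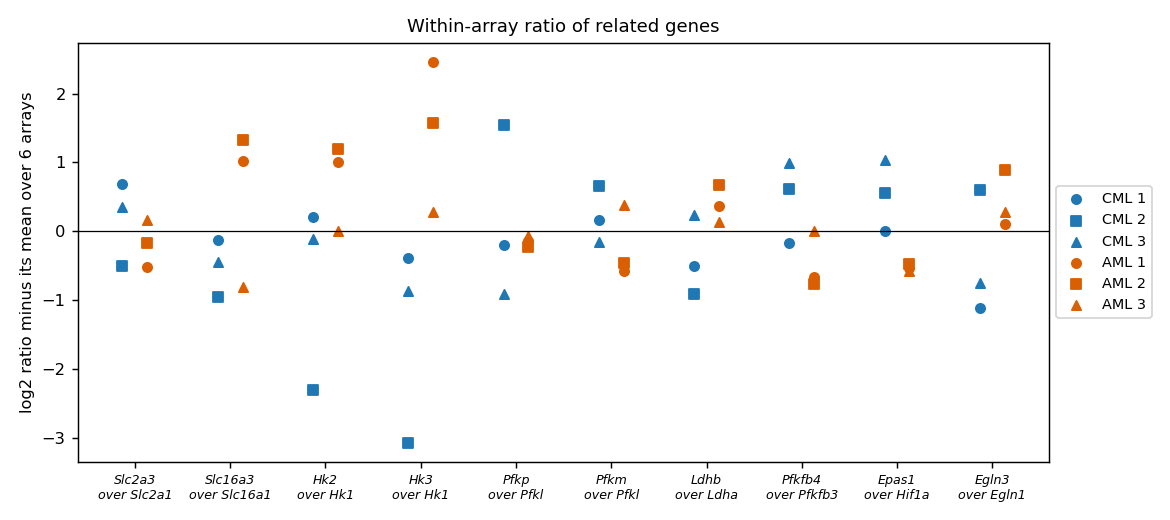
Within-array log2 ratio of 10 pairs of related genes, each centred on its mean over the 6 arrays, with 1 point per array. Only Hk3 over Hk1 and Epas1 over Hif1a separate the CML from the AML arrays.

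Around the listed genes, 73 of 82 other genes of glucose metabolism and the HIF pathway were measured. By value 39 of the 73 were higher in AML and 34 lower, where 38.3% of all genes were higher. Of the 73, 3 passed the adjusted threshold as higher in AML, which 1.83% of all genes did, and 0 passed as lower. No gene at all passed without CML 3, AML 1 or AML 2, so these calls also ended there. None of the 3 is a step of glycolysis: Fbp1 and Pygl belong to glycogen and gluconeogenesis, and Cited2 to the HIF machinery. Fbp1, the gluconeogenic enzyme that opposes phosphofructokinase and is known in monocytes, was at 3.70 in CML and 6.29 in AML (log2 change 2.59 ± 0.29, SE; limma adjusted p = 0.0225). Pygl, the glycogen phosphorylase of liver and neutrophils, was at 6.69 and 8.87 (2.17 ± 0.39, SE; limma adjusted p = 0.0499). Cited2, a HIF target that competes with HIF for its coactivator, was at 7.51 and 9.33 (1.82 ± 0.23, SE; limma adjusted p = 0.0278).

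The other pathway lists differed in direction. Of 11 genes of glycogen and gluconeogenesis 7 lay higher on every AML array, as did 13.3% of all genes, and the median change was 0.98. Named after their values were seen, the synthetic enzymes Ugp2, Gys1 and Gbe1 were 1.60, 1.42 and 2.22 higher by value without passing, and Pcx, the pyruvate carboxylase, was at -2.20 ± 0.98 (SE; limma adjusted p = 0.248) with overlapping groups. All 5 measured genes of the pentose phosphate path were higher by value (median 0.96), led by Pgd at 1.84 ± 0.36 (SE; limma adjusted p = 0.0616), which was also named after its value was seen. Of the 19 measured further HIF targets 5 were higher by value and 14 lower, with a median change of -0.29, where 38.3% of all genes were higher and the median was -0.11. Of the 19, 4 lay lower on every AML array and 1 higher, against 17.9% and 13.3% of all genes. The genes named next were chosen after their values were seen. Tfrc had the lowest change, -1.58 ± 0.76 (SE; limma adjusted p = 0.273), with overlapping groups. Ddit4, an inhibitor of mTORC1, lay lower on every AML array, at -1.14 ± 0.30 (SE; limma adjusted p = 0.111). Mxi1, an antagonist of Myc, lay higher on every AML array, at 1.58 ± 0.51 (SE; limma adjusted p = 0.162). The medians were 0.37 for 11 genes of pyruvate entry, 0.13 for 7 of the HIF machinery, -0.10 for 12 further carriers and -0.29 for 8 further glycolytic isoforms and regulators.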

How the data were processed

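Each of 6 samples was read on 1 Affymetrix array after labelling with a GeneChip wild-type terminal kit, per the labels' protocols. The deposited values are intensity values on a linear scale, 1 column per array, judged from the values themselves. Limma and lumi are the tools named in the submitters' processing notes. Background correction, probe set summary, normalization and a genome build are not given in the sources used here. Array medians ran from 17.2 to 20.4, and the number of arrays limits the precision.

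The annotation gives 1 symbol for 23521 of the 39721 probe sets, several for 1814 and none for 14386; 23328 matched a RefSeq table of GRCm38.p6 by Entrez identifier, and 0 symbols changed. Where a gene had several (1082 genes), the brightest on average was used. Log2 intensity of 22180 genes was fitted in limma 3.58.1 (R 4.3.3; lmFit, eBayes, no covariate, two-sided, Benjamini-Hochberg over all genes, threshold 0.05), checked on simulated data. In that check, of 50 genes changed by 1 log2 unit 28% were called, and of 50 changed by 2 units 68% were. At 3 and 4 units 78% and 94% were called, and 7 calls were false. Real changes near 1 log2 unit could therefore often fail to pass. Errors are moderated SE. Changes are AML minus CML.

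All listed genes are named, with pathway genes past the threshold and the markers Ptprc, Elane, Col1a1 and Cdh5. Listed genes with no single-symbol probe set were not analysed here. The members and lists were chosen with earlier results of these data known. Alternatives covered scaling, filters, probe sets, variance model, array weights, a replicate block, and each array left out in turn. Figures used matplotlib 3.10.9 (Python 3.11.15).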

Additional observations from a re-analysis of the deposited data

How the results depend on the processing

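Precision is limited by 3 arrays per group and by dim probe sets, and no alternative made a listed gene pass as lower in AML. Of the 32 genes, 22 kept their sign in every alternative and 4 (Hk3, Tpi1, Pgk1 and Hif1a) passed in at least 1. The count of all genes past the threshold, 423 as fitted, was 93 after quantile normalization, 896 after median centring, 64 after cyclic loess and 639 with array weights, and 0 to 438 with 1 array left out. It was 0 without CML 3, AML 1 or AML 2, where limma's unadjusted p was under 0.05 for 3533, 3048 and 3750 genes. The count of listed genes, 1 as fitted, was 0 after quantile normalization and cyclic loess, where limma's unadjusted p was under 0.05 for 12 and 9 that were higher, and 2 after median centring, with array weights and when only the brighter 50% were tested. It was 0 to 1 with 1 array left out.

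The replicate numbers of the titles did not pair the arrays: the deviations of same-numbered arrays from their group means correlated at 0.24, -0.30 and -0.25 across genes, and not every array correlated best with its own number. With the replicate block 0 genes and 0 listed genes passed in limma, whose unadjusted p was under 0.05 for 3711 genes, 13 of them listed and higher.

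The median change of the enzymes, 0.51, was 0.94 over the brighter 50%, where fewer are counted, and 0.42 to 0.74 with 1 array left out. That of the switch enzymes, 0.25, was 0.40 after median centring, 0.59 when probe sets of a gene were averaged and 0.10 to 0.38 with 1 array left out. That of the HIF targets, 0.18, was 0.53 over the brighter 50% and 0.041 to 0.44 with 1 array left out. That of all 32 genes was 0.51 after median centring, 0.22 after cyclic loess and 0.51 over the brighter 50%.

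Signs that turned belonged to genes that did not pass. With 1 array left out, changes ran from -1.22 to 0.40 for Slc2a1, -0.88 to 0.028 for Hk1, -0.39 to 0.44 for Pfkm, -0.29 to 0.96 for Pfkp, -0.14 to 0.41 for Aldoc, -0.062 to 0.35 for Ldha, -0.19 to 0.19 for Epas1, -0.42 to 0.33 for Bnip3 and -0.38 to 0.13 for P4ha1, and from -0.82 to 0.41 for Pfkp over Pfkl. Array weights gave -0.028 for Pfkm and 0.055 for Epas1, and cyclic loess -0.061 for Pfkp. Under quantile normalization, median centring and cyclic loess Eno2 was at 0.044, 0.014 and 0.086, and Epas1 at 0.043, 0.13 and 0.10. The cause was not tested.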
